A study of Mus musculus with 4 samples.

Results

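The spleen transcriptome of wild-type and vcS5 mice contained 1273 assembled transcripts that had no gene identifier and whose locus was carried by no annotated row. They were taken from a table of 14226 rows, in which 12810 rows had an identifier and a further 143 had none but sat on the locus of an annotated row. The table gave no strand, and the rule used neither expression values nor the genotype comparison. The 1273 rows lay at 1217 distinct loci, and 88 of them shared a locus with another unannotated row, so that neighbouring rows can stem from a common source. Counts of loci below are counts of rows unless distinct loci are named. Overlap with reference genes was read from the span of the locus, which rows at a shared locus have in common. Loci are written on the mm10 build.

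The strain was C57BL/6N, and RNA was sequenced from splenocytes, the cells of the spleen in suspension. Of the 4 libraries, 2 came from wild-type (wt) mice and 2 from transgenic mice with the genotype vcS5 +/T, called line1 in the sample descriptions. The title of the series names an activating STAT5 mutation and peripheral T-cell lymphoma, and the comparison asks how gene expression differs in these mice. The promoter of the transgene, the ages and whether a library pooled animals are not given in the sources used here. STAT5 is the transcription factor that acts downstream of interleukin receptors in lymphocytes. The row named Stat5a, on a locus of 80190 bases, was at 13.9 and 17.0 FPKM in wt and at 105 and 123 FPKM in vcS5 (limma adjusted p = 0.00241). Whether reads of the transgene count in this row was not tested. FPKM is a fragment number scaled by transcript length and library size, so it compares levels between loci of unlike length.

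A reference-guided assembly reports a transcript wherever reads pile up outside the gene models it was given. Such transcripts can be long noncoding RNAs, which have no known protein product, antisense RNAs or processed pseudogenes. They can also be extensions of a gene beyond its annotated end or reads placed in repeated sequence. Long noncoding RNAs are often transcribed close to genes that are active in the same cell type. Ifngas1, a noncoding RNA next to the interferon gamma gene Ifng, is a known example in T cells. Libraries of the kind used here do not keep the strand, so a transcript and an overlapping antisense transcript cannot be told apart.

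Most of the loci carry no sequence of their own in the sources used here. For 4 ranked members the locus covers the start of a noncoding gene with a RefSeq promoter record on GRCm38.p6, and for 2 abundant short members it lies within an exon of a GENCODE vM21 transcript. The promoters are shown because these 4 members stand among the largest rises and falls, and the exonic stretches because such short members carried most of the summed signal. Each promoter runs from 250 bases before to 50 bases after the gene start. Capitals mark TTCNNNGAA, the palindromic core that STAT proteins are known to bind, searched on both strands.
Gm4208 promoter at XLOC_001191, chr1:62823551-62823850, minus strand: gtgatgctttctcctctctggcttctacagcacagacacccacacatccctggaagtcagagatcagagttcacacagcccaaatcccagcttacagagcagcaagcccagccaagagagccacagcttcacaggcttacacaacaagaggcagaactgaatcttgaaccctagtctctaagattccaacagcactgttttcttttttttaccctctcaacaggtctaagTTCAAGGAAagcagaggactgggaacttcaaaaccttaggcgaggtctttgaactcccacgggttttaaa
Ifngas1 promoter at XLOC_003300, chr10:118556476-118556775, minus strand: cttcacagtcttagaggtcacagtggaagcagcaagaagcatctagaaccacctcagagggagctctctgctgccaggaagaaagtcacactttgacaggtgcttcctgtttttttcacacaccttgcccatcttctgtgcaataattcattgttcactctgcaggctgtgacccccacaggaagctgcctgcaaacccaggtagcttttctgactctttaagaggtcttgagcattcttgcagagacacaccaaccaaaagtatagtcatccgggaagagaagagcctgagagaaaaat
Gm4610 promoter at XLOC_021454, chr3:122391947-122392246, minus strand: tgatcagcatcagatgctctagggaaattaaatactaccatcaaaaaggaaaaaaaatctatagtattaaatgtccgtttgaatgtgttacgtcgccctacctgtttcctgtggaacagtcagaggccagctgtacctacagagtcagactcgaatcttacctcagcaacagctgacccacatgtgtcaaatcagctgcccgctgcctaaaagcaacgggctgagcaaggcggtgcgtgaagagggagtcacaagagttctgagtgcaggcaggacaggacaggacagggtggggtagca
Gm19951 promoter at XLOC_006798, chr12:99642846-99643145, plus strand: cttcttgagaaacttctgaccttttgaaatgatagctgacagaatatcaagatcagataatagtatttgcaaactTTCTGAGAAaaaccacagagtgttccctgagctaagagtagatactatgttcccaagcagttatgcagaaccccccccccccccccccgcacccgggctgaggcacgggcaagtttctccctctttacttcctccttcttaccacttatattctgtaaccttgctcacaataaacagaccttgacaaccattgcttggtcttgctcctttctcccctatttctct
Gm4972 pseudogene exon, the whole locus of XLOC_031627, chr7:105412922-105413016, minus strand: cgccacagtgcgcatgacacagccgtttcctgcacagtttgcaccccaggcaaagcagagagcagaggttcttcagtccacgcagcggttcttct
Gm7389 pseudogene exon, the whole locus of XLOC_033113, chr8:3995091-3995177, plus strand: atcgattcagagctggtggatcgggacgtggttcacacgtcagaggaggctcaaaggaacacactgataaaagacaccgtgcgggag

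The TTCNNNGAA core occurred 1 time in the Gm4208 promoter, which lies at a locus that rose, and 1 time in the Gm19951 promoter, which lies at a locus that fell. Whether these windows are the promoters of the assembled transcripts was not tested. It was not found in the Ifngas1 and Gm4610 windows. Among all 32851 promoters in the RefSeq table, 8.30% held the core. Among the 89 promoters of noncoding genes within 300 bases of an unannotated locus, 5 held it (5.62%), with 1 of 13 at loci called higher and 1 of 6 at loci called lower. A match in these letters is a description of the window only.

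Unannotated transcripts were called higher in vcS5 more often than lower. limma on log2(FPKM + 1), with Benjamini-Hochberg adjustment over all 14226 rows and a threshold of 0.05, called 92 of the 1273 higher and 50 lower, 7.23% and 3.93% of them. Over all rows of the table, 4.59% were called higher and 4.13% lower, and 8.72% in either direction. The share of the unannotated loci called in either direction was 11.2%, that of the annotated rows 8.51% (556 higher and 534 lower), and 9 of the 143 unannotated rows on annotated loci were called. The median log2 change was -0.06 for the 1273 loci and 0.001 for all rows. The wt and vcS5 samples are labelled biological replicates, and with 2 libraries a group the p-values rest on the spread between these samples alone. limma takes that spread partly from the row itself and partly from a trend over all rows.

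**Figure D1:**
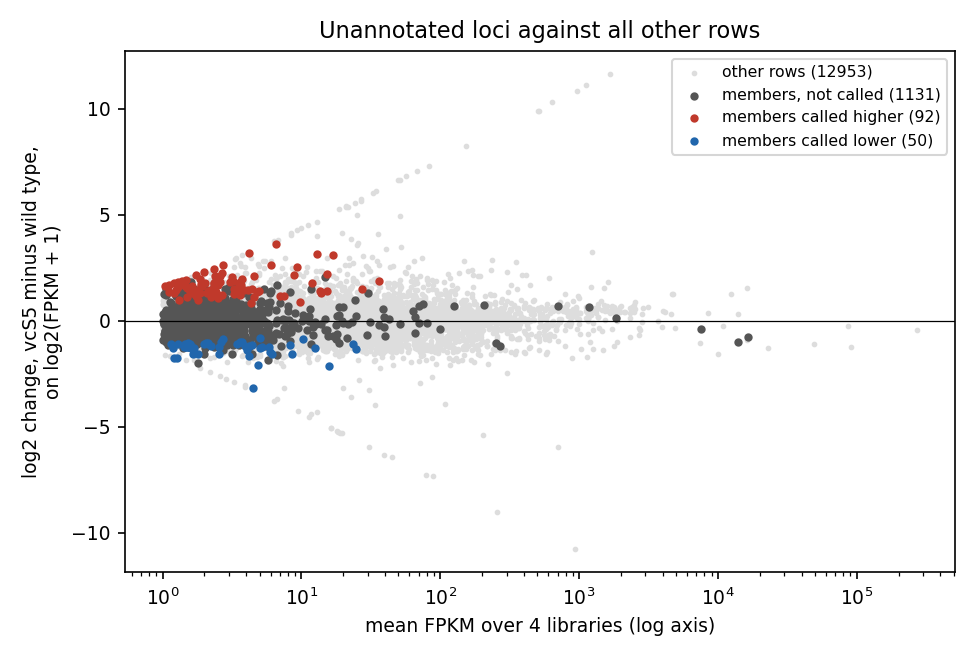
Log2 change of vcS5 minus wild type on log2(FPKM + 1) (y axis) against the mean FPKM over 4 libraries (x axis, log scale) for every row. Unannotated loci are drawn in dark grey, in red where called higher (92) and in blue where called lower (50), over the other rows in light grey; most of them lie at the left, below 5 FPKM, and the 7 shortest lie far to the right.

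The loci that rose came from near the bottom of the range. Among the 92 higher loci the median of the group means was 0.623 FPKM in wt and 4.24 FPKM in vcS5, and log2 changes ran from 0.84 to 3.61 with a median of 1.63. Among the 50 lower loci the medians were 3.94 FPKM in wt and 1.08 FPKM in vcS5, with log2 changes from -3.17 to -0.83. In 60 of the 92 the wt mean was under 1 FPKM, and in 24 of the 50 the vcS5 mean was. The deposited table holds no row with a mean under 1.00 FPKM over the 4 libraries, so a locus that low in 1 group had to be higher in the other to be listed. These counts are therefore not taken as support for a direction. The same limit holds for the tallies by neighbour, width, distance and group given below.

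Expression of the unannotated loci was low compared with annotated genes. The quartiles of their mean FPKM were 1.52, 1.99 and 2.94, and 1119 of them (87.9%) lay under 5 FPKM, against 24.7% of annotated rows. Below 5 FPKM, 76 loci were called higher and 37 lower (10.1% in either direction), beside 6.10% of the 3163 annotated rows in that range. Of the 154 loci at 5 FPKM or more, 16 were called higher and 13 lower (18.8%), beside 9.48% of all rows at that level. Only 11 loci reached 100 FPKM. With the fit limited to rows at a mean of 5 FPKM or more, 16 loci were called higher and 12 lower, where all rows gave 4.79% and 4.7%. By a plain comparison of values, both vcS5 libraries stood above both wt libraries at 345 of the 1273 loci (27.1%) and below them at 408 (32.1%), beside 26.9% and 27.5% of all rows. The first of these shares is near that of all rows. Below 5 FPKM the shares were 27.3% and 32.3% of the unannotated loci, beside 22.7% and 33.6% of annotated rows.

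Few of these calls withstood the loss of a library. Without wt replicate 1, 9 loci were called higher and 3 lower, and without wt replicate 2 these counts were 15 and 4. With vcS5 replicate 1 left out they were 4 and 0, and with vcS5 replicate 2 left out they were 2 and 0. In such fits the lone sample of a group is assumed to vary like the other group. XLOC_001191, next to Nrp2, and XLOC_031659, next to Cd163l1, were the 2 of 142 called loci that passed in each of the 4 fits. The latter is listed at 0 in both wt libraries, so that its fits without a vcS5 library take their spread at the locus from a pair of zeros and show nothing about stability. In the authors' deposited table, with its own test, 69 of the 1273 loci had a q-value under 0.05 and were higher, and 57 were lower. These included 51 of the 92 and 25 of the 50. Over all 14226 rows, 756 (5.31%) were higher and 874 (6.14%) lower by that q-value. By that test the share of loci called higher was near that of all rows, unlike with limma, and the share called lower was below it.

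Markers of T, B and other blood cells were present, and their levels differed between the groups. None of the markers that was measured was listed at 0, and the 3 stroma markers Col1a1, Col3a1 and Pdgfrb had no row among those analysed. All 6 CD8 T-cell markers were higher in vcS5, with summed FPKM of 440 to 502 in wt and 3599 to 4047 in vcS5. The 4 natural killer cell markers went both ways. Of these, 2 were higher (Klra8 and Klrd1, log2 changes of 2.55 and 1.33) and 1 was lower (Ncr1, -3.17), while Klrb1c was not called (-0.84). Of 7 pan T-cell markers 3 were higher, with sums of 687 to 943 and 1920 to 2600. All 7 B-cell markers were lower, with sums of 2887 to 3468 in wt and 1150 to 1187 in vcS5. Of 8 neutrophil markers 1 was lower, and their sum was 6097 in wt replicate 1 but 1840 in wt replicate 2, beside 992 and 958 in vcS5. In bulk RNA, fewer cells of a type and less RNA per cell cannot be told apart, and the part of cell makeup in the differences reported here was not tested.

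The largest rise among loci with nonzero values was at chr1:62819337-62834637 (XLOC_001191), which covers an exon of Gm4208, a noncoding gene. The Gm4208 promoter printed above with 1 STAT core lies inside this locus. Whether the assembled transcript starts there was not tested. Its level was 0.237 and 0.0577 FPKM in the wt libraries and 12.6 and 13.3 FPKM in the vcS5 libraries. The groups were far apart, and the ratio of means was 87.9, although it rests on wt values well below 1 FPKM. On log2(FPKM + 1) the change was 3.61 (SE 0.182, limma adjusted p = 0.00145). With a wt library left out its adjusted p was 0.0141 (replicate 1) or 0.0164 (replicate 2), and with a vcS5 library left out it was 0.0354 (replicate 1) or 0.0404 (replicate 2). The locus starts 69 bases beyond the Nrp2 row, whose product neuropilin-2 is a co-receptor for semaphorins and vascular growth factors. Nrp2 also rose, from 2.06 and 2.43 FPKM to 8.49 and 8.16 FPKM (log2 change 1.53, limma adjusted p = 0.0112), a ratio of means of 3.71.

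Beside Ifng, between chr10:118494075 and 118556605, 7 of the 9 unannotated rows with Ifng as their nearest annotated row were higher in vcS5, at 4 distinct loci. Ifng encodes interferon gamma, the cytokine of activated T and natural killer cells, and the loci lay 48183 to 68643 bases beyond the end of its row. The loci of 6 of the 9 rows touch an exon of Ifngas1, though a shared locus does not show which of its rows does. Of the 9, 4 carry the locus chr10:118502070-118513148, so they are not independent of each other. The most abundant of them, XLOC_003299, measured 3.23 and 2.18 FPKM in wt and 32.2 and 29.6 FPKM in vcS5, a ratio of means of 11.4. Its log2 change was 3.12 (SE 0.189, limma adjusted p = 0.00259). The locus of XLOC_003300, chr10:118514535-118556605, covers the Ifngas1 start shown above. XLOC_003300 measured 1.16 and 2.38 FPKM in wt and 17.9 and 30.3 FPKM in vcS5 (limma adjusted p = 0.011, with a log2 change of 3.17 and an SE of 0.334). The 2 vcS5 libraries differed more at this locus than at XLOC_003299, and both stood well above wt.

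Other rows of this region were lower in level and similar in pattern. XLOC_003496 had a ratio of means of 18.6 (log2 change 2.25), XLOC_003499 of 11.7 (1.98), XLOC_003501 of 9.46 (2.09) and XLOC_003491 of 11.8 (1.47). XLOC_003503 was listed at 0 in both wt libraries and at 3.13 and 6.23 FPKM in vcS5. The remaining rows were not called: XLOC_003500 had 0.132 and 0.624 FPKM in wt and 1.61 and 2.86 in vcS5 (limma adjusted p = 0.0816), and XLOC_003492 had 3.50 and 1.38 in wt and 1.30 and 14.0 in vcS5, where only vcS5 replicate 2 was high. Ifng itself rose from 7.72 and 4.80 FPKM to 24.98 and 21.9 FPKM, a ratio of 3.74 (log2 change 1.78, limma adjusted p = 0.0169). The difference between the change of Ifng and that of the loci was not tested. The calls of XLOC_003299 ended when vcS5 replicate 1 (limma adjusted p = 0.0542) or 2 (0.0576) was left out, and that of XLOC_003300 ended in the same fits (0.064 and 0.0971) and without wt replicate 1 (0.0663).

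**Figure D2:**
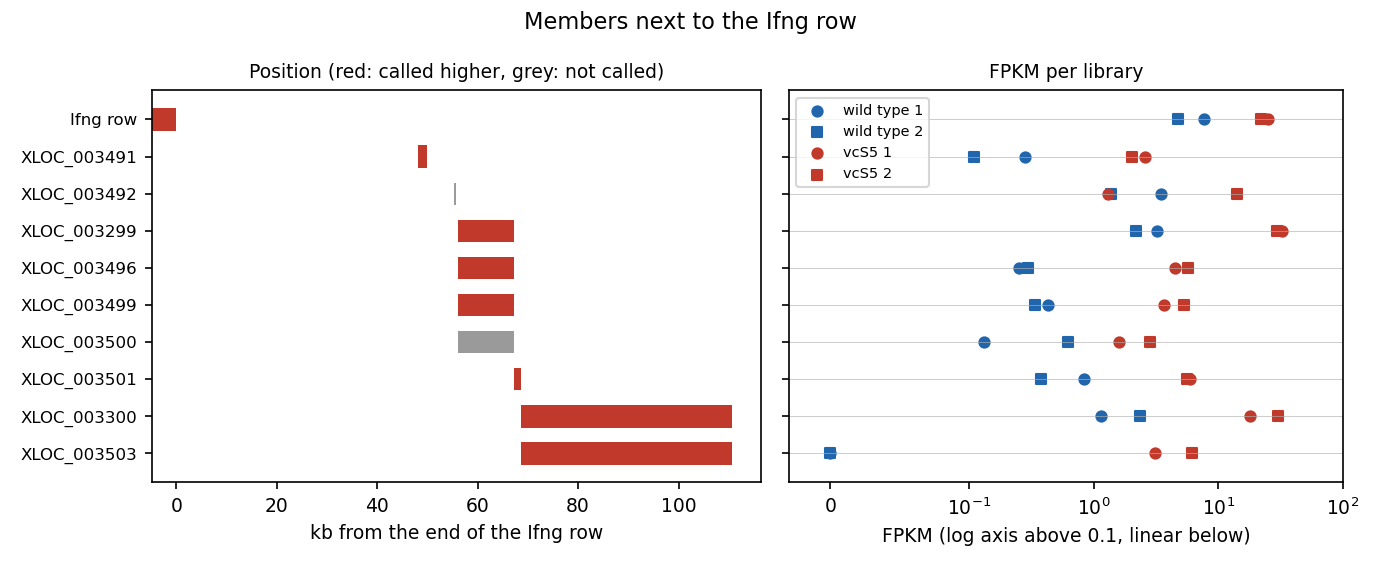
Left, position of the 9 unannotated rows in kb from the end of the Ifng row, in red where called higher in vcS5 and in grey where not called. Right, FPKM of each row in each library (log axis above 0.1, linear below), with wild type in blue and vcS5 in red; the vcS5 points lie above the wild-type points in every row except XLOC_003492.

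Eomes encodes a T-box factor of cytotoxic T cells. It was the nearest annotated row of 6 unannotated rows, all at lower coordinates, and 4 of them were higher in vcS5. The nearest, XLOC_034912, lay 324 bases from the Eomes row and measured 1.35 and 0.530 FPKM in wt and 6.98 and 5.95 FPKM in vcS5 (log2 change 1.97, limma adjusted p = 0.0179). A pair of rows share the locus chr9:118457278-118463183 and had ratios of 14.4 and 17.0. XLOC_034911, with 1.03 and 0.608 FPKM in wt and 2.29 and 8.06 FPKM in vcS5, and XLOC_034905, with 0.144 and 0.170 in wt and 2.56 and 1.21 in vcS5, were not called. Eomes itself was at 10.6 and 7.86 FPKM in wt and 44.0 and 46.9 FPKM in vcS5 (limma adjusted p = 0.00593). Without wt replicate 1 the call of XLOC_034912 held (limma adjusted p = 0.0483), and it ended without wt replicate 2 (0.0661), vcS5 replicate 1 (0.107) or vcS5 replicate 2 (0.125).

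Ccl5 encodes a chemokine of cytotoxic T cells, and XLOC_004363 at chr11:83525194-83525627 lay 151 bases from its row. It measured 0.331 and 0.347 FPKM in wt and 5.52 and 4.25 FPKM in vcS5, a ratio of 14.4 (log2 change 2.13, limma adjusted p = 0.00958). Thy1, a surface glycoprotein of T cells, had 10 unannotated rows for which it was the nearest annotated gene. Of these, 2 were called, and the median log2 change of the 10 was 1.61. The floor on listed rows bears on this median, so it is not taken as support for a direction. XLOC_034864, over an exon of Gm39323 and 2221 bases from Thy1, measured 1.65 and 3.90 FPKM in wt and 15.9 and 13.9 FPKM in vcS5 (limma adjusted p = 0.0228). The other, XLOC_034857, was listed at 0 in wt and measured 5.01 and 2.92 FPKM in vcS5. Near it, 4 rows listed at 0 in wt had 4.50 to 5.52 FPKM in vcS5 replicate 1 but 0.470 to 1.501 in vcS5 replicate 2 and were not called. Leaving out wt replicate 2 kept the call of XLOC_034864 (limma adjusted p = 0.0322), and leaving out wt replicate 1 (0.066), vcS5 replicate 1 (0.126) or vcS5 replicate 2 (0.138) ended it.

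Among the markers listed for B cells and plasma cells, Pax5 and Mzb1 were each the nearest annotated gene of 1 unannotated locus. Pax5 is the factor that maintains B-cell identity, and its neighbour XLOC_023374 measured 1.87 and 2.83 FPKM in wt and 0.711 and 1.497 in vcS5 (limma adjusted p = 0.223). The Mzb1 neighbour XLOC_015410 measured 2.06 and 2.14 FPKM in wt and 1.02 and 0.573 FPKM in vcS5 (limma adjusted p = 0.105). Both had lower values in vcS5 and neither passed the test.

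A further group of rises lay far from any annotated row, on chromosome 15. Of the 11 unannotated rows between chr15:60088459 and 60187462, at 10 distinct loci, 6 were higher in vcS5. An exon of Gm2682, a noncoding gene, was touched by the loci of 3 of the 11. XLOC_011440, at chr15:60128121-60187462, measured 13.7 and 13.9 FPKM in wt and 44.2 and 38.2 FPKM in vcS5 (ratio 2.99, log2 change 1.51, limma adjusted p = 0.00882). XLOC_011871, inside Gm2682 but touching no exon, measured 7.46 and 8.31 FPKM in wt and 22.5 and 22.6 FPKM in vcS5 (ratio 2.86, limma adjusted p = 0.00958). At both loci the libraries of a group lay close together and the groups far apart. The nearest annotated row was Trib1, a pseudokinase gene 448374 to 471504 bases from the 6 called rows, and it moved the other way, from 11.0 and 9.90 FPKM to 3.85 and 4.17 FPKM (log2 change -1.19, limma adjusted p = 0.0165).

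Prss12, which encodes the serine protease neurotrypsin, was the nearest annotated row of 5 unannotated rows, and 4 of them were higher. XLOC_021673, over an exon of Gm35065, measured 1.20 and 0.707 FPKM in wt and 10.3 and 11.9 FPKM in vcS5, a ratio of 11.7 (log2 change 2.64, limma adjusted p = 0.00518). XLOC_021670 in the same stretch rose from 0.987 and 0.583 FPKM to 7.12 and 4.16 FPKM (limma adjusted p = 0.0248). Prss12 rose from 1.64 and 2.43 FPKM to 11.3 and 12.9 FPKM (limma adjusted p = 0.00864). The call of XLOC_021673 ended when vcS5 replicate 1 (limma adjusted p = 0.064) or 2 (0.0811) was left out, and that of XLOC_021670 ended without any of the 4 libraries (0.0942 to 0.111).

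Other ranked rises stood next to genes of varied function. XLOC_031901, over an exon of Gm29243 at chr8:34216822-34226094, rose from 2.59 and 1.52 FPKM to 15.3 and 17.8 FPKM (log2 change 2.54, limma adjusted p = 0.00755). Its nearest row, Tmem66, which encodes a regulator of store-operated calcium entry, rose from 63.2 and 69.2 FPKM to 199.5 and 197 FPKM. XLOC_000887 at chr1:182255298-182257163, where the reference has no gene, rose from 4.14 and 5.59 FPKM to 22.0 and 29.7 FPKM (log2 change 2.19, limma adjusted p = 0.00958). This was the 1 of the 12 ranked rises whose nearest row was not called higher: Degs1, a sphingolipid desaturase gene 18609 bases away, was at 47.4 and 35.2 FPKM in wt and 42.6 and 34.4 FPKM in vcS5. XLOC_024750 lies over an exon of Gm1043, 157 bases from the Gm1043 row, and rose from 1.43 and 0.811 FPKM to 7.999 and 7.85 FPKM (limma adjusted p = 0.0102). The calls of XLOC_031901 and XLOC_024750 held without either wt library and ended without vcS5 replicate 1 (limma adjusted p = 0.0725 and 0.0823) or vcS5 replicate 2 (0.0971 and 0.107), and that of XLOC_000887 held only without wt replicate 2 (0.0437).

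**Figure D3:**
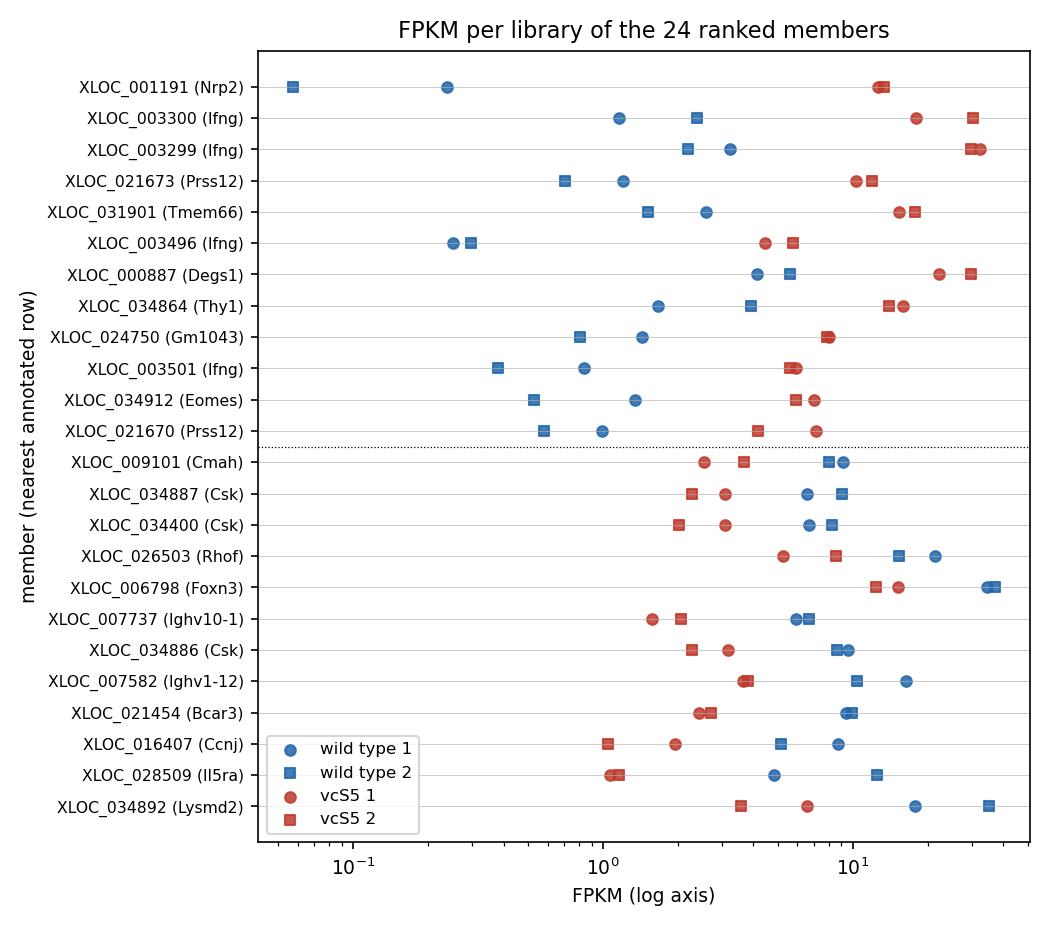
FPKM (x axis, log scale) of the 12 ranked rises (upper rows) and 12 ranked falls (lower rows) in each of 4 libraries, with wild type in blue and vcS5 in red, circles for replicate 1 and squares for replicate 2. Each row names the locus and its nearest annotated gene; the groups do not overlap in any row, which the ranking required, and the gap is widest for XLOC_001191.

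Some loci were listed at 0 in a whole group, and for these no ratio is given. Of the 1273 loci, 19 were at 0 in both wt libraries, of which 13 were called higher, and 4 were at 0 in both vcS5 libraries, of which 3 were called lower. A 0 in only 1 library of a group did not occur at any of the 1273 loci, and whether a listed 0 means no reads or comes from the way the values were estimated was not tested. The calls at such loci, here and above, rest on those zeros. XLOC_031659, at chr7:140213607-140213876 and 4156 bases from Cd163l1, was at 0 and 0 in wt and at 10.1 and 6.59 FPKM in vcS5 (limma adjusted p = 0.00529). All 4 rows whose nearest gene was Cd163l1, a scavenger receptor gene of the CD163 family, were at 0 in wt, and 3 of them were called. XLOC_031661 was not called, with 0.719 and 3.51 FPKM in vcS5. Cd163l1 itself rose from 0.883 and 1.55 FPKM to 33.5 and 42.4 FPKM (limma adjusted p = 0.00163).

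Arl4c, which encodes a small GTPase of the ARF family, was the nearest annotated row of 4 unannotated rows, of which 3 were listed at 0 in wt and called higher. The other, XLOC_001899, was not called (limma adjusted p = 0.0694). XLOC_001898 had 3.67 and 7.29 FPKM in vcS5 (limma adjusted p = 0.0151), and its call held only without vcS5 replicate 1 (0.0478) among the fits without a library. Arl4c, 88510 to 116240 bases from these 3, rose from 34.3 and 37.5 FPKM to 141 and 137 FPKM (limma adjusted p = 0.00372). In the other direction, XLOC_015442 on chromosome 18 was at 13.3 and 4.71 FPKM in wt and at 0 in both vcS5 libraries (limma adjusted p = 0.0206), with adjusted p = 0.113 without vcS5 replicate 1 and 0.137 without vcS5 replicate 2. Its nearest annotated row, Cd226, a receptor gene of T and natural killer cells 570655 bases away, was higher in vcS5. Also on chromosome 18, XLOC_015375 rose from 0.179 and 0.354 FPKM to 3.39 and 5.66 FPKM, and XLOC_015376 rose from 0.373 and 0.484 FPKM to 2.75 and 4.14 FPKM (limma adjusted p = 0.0169 and 0.0236). They lay next to each other and 549416 and 547512 bases from Mbp, the myelin basic protein gene, which was higher as well, and both calls ended without any 1 library (adjusted p of 0.0688 to 0.125).

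The 12 ranked falls ran from -2.14 to -1.24 on the log2 scale, and the 12 ranked rises from 1.87 to 3.61. The most abundant fall was XLOC_006798 over Gm19951, a noncoding gene at chr12:99643043-99647216 whose promoter is printed above. It measured 34.3 and 37.0 FPKM in wt and 15.1 and 12.3 FPKM in vcS5, with wt 2.60 times the vcS5 mean (limma adjusted p = 0.014, with a log2 change of -1.32 and an SE of 0.157). The nearest annotated row, the forkhead gene Foxn3 at 79043 bases, was at 55.1 and 76.9 FPKM in wt and 45.8 and 58.5 FPKM in vcS5 and was not called (limma adjusted p = 0.439). XLOC_021454 over Gm4610, inside the reference gene Bcar3, fell from 9.35 and 9.93 FPKM to 2.42 and 2.71 FPKM (log2 change -1.58, limma adjusted p = 0.00958). Bcar3, which encodes an adaptor of integrin and growth factor signalling, fell by 1.44 on the log2 scale (limma adjusted p = 0.00954). Neither locus passed without any 1 of the 4 libraries, with adjusted p of 0.0749 to 0.116 for XLOC_006798 and 0.0687 to 0.0962 for XLOC_021454.

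Csk was the nearest annotated row of 3 unannotated rows, between chr9:57646437 and 57653465, and all 3 were lower in vcS5. They lie inside the reference gene Csk, beyond the higher-coordinate end of the Csk row, and XLOC_034400 covers an exon of it. Csk encodes the kinase that holds Src family kinases inactive in lymphocytes. XLOC_034886, the nearest at 784 bases, measured 9.52 and 8.67 FPKM in wt and 3.17 and 2.26 FPKM in vcS5 (log2 change -1.45, limma adjusted p = 0.0168). The others changed by -1.27 and -1.26 on the log2 scale (limma adjusted p = 0.0331 and 0.0344). The Csk row was at 162 and 186 FPKM in wt and 134 and 129 FPKM in vcS5 and was not called (log2 change -0.40, limma adjusted p = 0.185). With any 1 library left out the calls of the 3 loci ended, at adjusted p of 0.0749 to 0.173.

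A pair of the ranked falls lay over immunoglobulin heavy chain variable segments, which encode the antigen-binding part of antibodies. XLOC_007582 over Ighv1-11 fell from 16.3 and 10.4 FPKM to 3.63 and 3.81 FPKM (limma adjusted p = 0.0236), and XLOC_007737 over Ighv8-2 fell from 5.94 and 6.68 FPKM to 1.57 and 2.04 FPKM (limma adjusted p = 0.0175). In all, 11 loci touched a receptor segment exon, of which these 2 were called, and the median log2 change of the 11 was -0.43. Of the 50-base words in their exonic parts, 0 of 256 and 0 of 261 occur in transcripts of other reference genes, and at most 2 words did at any of the other receptor segment loci. B-cell markers fell in the same libraries, as given above. Without wt replicate 2 the call of XLOC_007582 held (limma adjusted p = 0.045), and it ended without each other library (0.0868 to 0.142), while that of XLOC_007737 ended without any 1 of them (0.0908 to 0.111).

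The remaining ranked falls were at short loci, of 189 to 288 bases. XLOC_034892 at chr9:76361966-76362154 measured 17.8 and 35.0 FPKM in wt and 6.57 and 3.56 FPKM in vcS5 (log2 change -2.14, limma adjusted p = 0.0369), and lay 724193 bases from Lysmd2, farther than any other called locus lay from an annotated row. XLOC_028509, in an intron of Il5ra, the interleukin 5 receptor gene, measured 4.82 and 12.5 FPKM in wt and 1.07 and 1.16 FPKM in vcS5 (limma adjusted p = 0.0458). At both loci the wt libraries differed from each other more than the vcS5 libraries did in FPKM. Il5ra fell by 1.02 on the log2 scale (limma adjusted p = 0.0351). XLOC_016407 near Ccnj, XLOC_026503 near Rhof and XLOC_009101 near Cmah fell by 1.66, 1.31 and 1.24 on the log2 scale, and none of these 3 neighbours was called. XLOC_026503 stood just inside the threshold (limma adjusted p = 0.0499), and its call ended with a pseudocount of 0.1 (0.0529), with quantile normalization (0.0528) and without the variance trend (0.0582). That of XLOC_028509 ended with a pseudocount of 5 (0.0798), with quantile normalization (0.0532) and without the variance trend (0.0502). Of the 5 loci, only XLOC_028509 kept its call in a fit without a library, that without wt replicate 1 (0.0319), and the others reached adjusted p of 0.0709 to 0.198.

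The summed signal of the unannotated loci was dominated by 7 loci shorter than 100 bases. The 1273 loci took 2.65% and 5.43% of all FPKM in the wt libraries and 3.42% and 2.45% in vcS5, and the 7 short loci made up 82.2% to 93.4% of that. Without them the shares were 0.370% and 0.357% in wt and 0.428% and 0.435% in vcS5. XLOC_028476, of 59 bases, measured 12020 and 29676 FPKM in wt and 15773 and 7890 FPKM in vcS5. XLOC_011849, of 58 bases, of which 1 touches a pseudogene exon, measured 9252 and 29651 FPKM in wt and 8805 and 7953 FPKM in vcS5. In both, wt replicate 2 stood far above the other 3 libraries, and neither was called (limma adjusted p = 0.539 and 0.412).

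These 7 loci are 58 to 99 bases long and were sequenced with 50-base reads, and FPKM divides by a transcript's length. The printed Gm4972 exon, XLOC_031627, measured 1109 and 683 FPKM in wt and 1981 and 928 FPKM in vcS5 (limma adjusted p = 0.447). Of its 46 words of 50 bases, 29 (63.0%) also occur in transcripts of another gene, Prrc2c, so reads from either cannot be told apart there. The printed Gm7389 exon, XLOC_033113, measured 519 and 525 FPKM in wt and 1153 and 625 FPKM in vcS5 (limma adjusted p = 0.259), and 3 of its 38 words (7.89%) occur in transcripts of Xpot. Across the 430 loci whose exonic part holds at least 1 such word, 53 (12.3%) shared a word with transcripts of another gene. XLOC_003489 near Gm10271 and XLOC_015406 on chromosome 18 completed the 6 most abundant loci, and neither was called (limma adjusted p = 0.687 and 0.867).

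Spread between replicates differed with locus width. Widths ran from 58 to 217316 bases with quartiles of 463, 701 and 1570 bases. The median gap between the 2 wt libraries on log2(FPKM + 1) was 0.698 for the 7 loci under 100 bases and 0.811 for the 65 loci from 100 to under 300 bases. It was 0.386 for the 715 loci from 300 bases to 1 kb, 0.203 for the 406 loci from 1 to 10 kb and 0.250 for the 80 wider loci. The vcS5 gaps were 0.449, 0.809, 0.412, 0.201 and 0.290 in the same order. The gaps were widest from 100 to under 300 bases and narrowest from 1 to 10 kb in both groups, so they did not follow width throughout. Calls made up 0 of the 7, 13.8% of the next class, 9.23% and 13.3% of the middle classes and 16.25% of the widest. The share over all rows was 8.72%. In the widest class 12 rows were higher and 1 was lower, and rows at a shared locus, as at Ifngas1, count separately.

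Unannotated loci far from annotated rows were called more often than near ones. No locus overlapped an annotated row, the nearest lay 1 base away, and the quartiles of distance were 1561, 4596 and 18549 bases, with a maximum of 5450002. Within 10 kb of an annotated row, 56 of 826 loci were called (6.78%), and beyond 10 kb, 86 of 447 (19.2%). Split further, 6.37% were called up to 1 kb, 6.98% from 1 to 10 kb, 17.6% from 10 to 100 kb and 25.5% beyond 100 kb. The near share is below the 8.72% of all rows and the far share above it, but with a limit of 50 kb both were above it (9.05% and 26.1%), as they were at 10 kb from any reference gene (9.89% and 22.1%). From 10 to 100 kb the calls leaned upwards, with 45 higher and 17 lower, while from 1 to 10 kb there were 20 and 19. The floor on listed rows bears on these directions as well. Median width differed little, 673.5 bases within 10 kb and 807 beyond, as did median FPKM, 2.03 and 1.90.

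**Figure D4:**
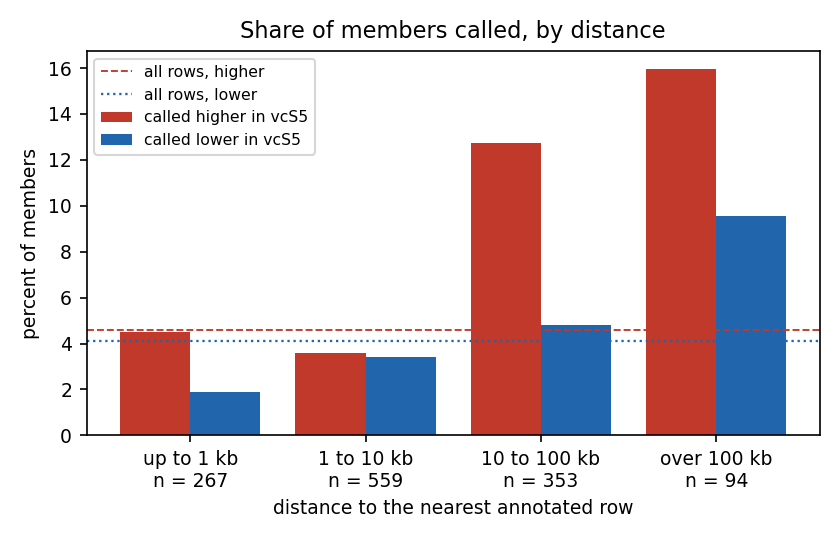
Percent of unannotated loci called higher (red bars) and lower (blue bars) in vcS5, by distance to the nearest annotated row, with the number of loci under each class; lines give the shares over all rows, 4.59% higher (dashed) and 4.13% lower (dotted). Both shares are largest beyond 100 kb, where 15 loci were higher and 9 lower.

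Called loci came in clusters, so these shares do not rest on separate observations. Chained within 100 kb, the 142 called loci formed 97 groups. Of these, 26 held 2 or more rows and together 71 rows, and 17 of the 26 were higher and 9 lower, with none of mixed direction. The 9 groups of 3 or more rows comprised 8 higher and 1 lower, the latter at Csk. Because of the floor on listed rows, the directions of the groups are not taken as support for a direction. With only the most abundant locus kept for each nearest annotated row, a step chosen after the data were seen, 7.68% of 547 loci within 10 kb and 24.4% of 201 beyond 10 kb were called. The order of the near and far shares was thus the same.

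The nearest annotated row often moved with the locus. Among the 142 called loci, the nearest row was called in the same direction for 59 (41.5%), in the opposite direction for 9 and not called for 74. Over all 1273 loci the nearest row was called for 255 (20.03%), and these stem from 111 of 688 distinct rows. Up to 1 kb, 10 of 17 called loci had a neighbour called in the same direction and 0 in the opposite direction. Beyond 100 kb these counts were 6 and 7 of 24, and the 7 include the 6 called rows whose nearest row was Trib1. Of the 12 ranked rises 11 had a neighbour called higher, from the 7 rows of Nrp2, Ifng, Prss12, Tmem66, Thy1, Gm1043 and Eomes, and of the 12 ranked falls 2 had a neighbour called lower.

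Across loci, the log2 change of a locus and that of its nearest row had Pearson's r of 0.615 up to 1 kb (n = 267), 0.568 from 1 to 10 kb (n = 559), 0.606 from 10 to 100 kb (n = 353) and -0.01 beyond 100 kb (n = 94). Spearman's rho was 0.585, 0.556, 0.561 and -0.06 in the same classes. The 94 loci beyond 100 kb had 40 distinct nearest rows, and 11 of the 94 had Trib1, so this class leans on few neighbours. These are descriptions across loci that share libraries and in part neighbours, and both values come from the same 4 samples. A separate transcript and an unannotated end of the neighbour cannot be told apart from these values.

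**Figure D5:**
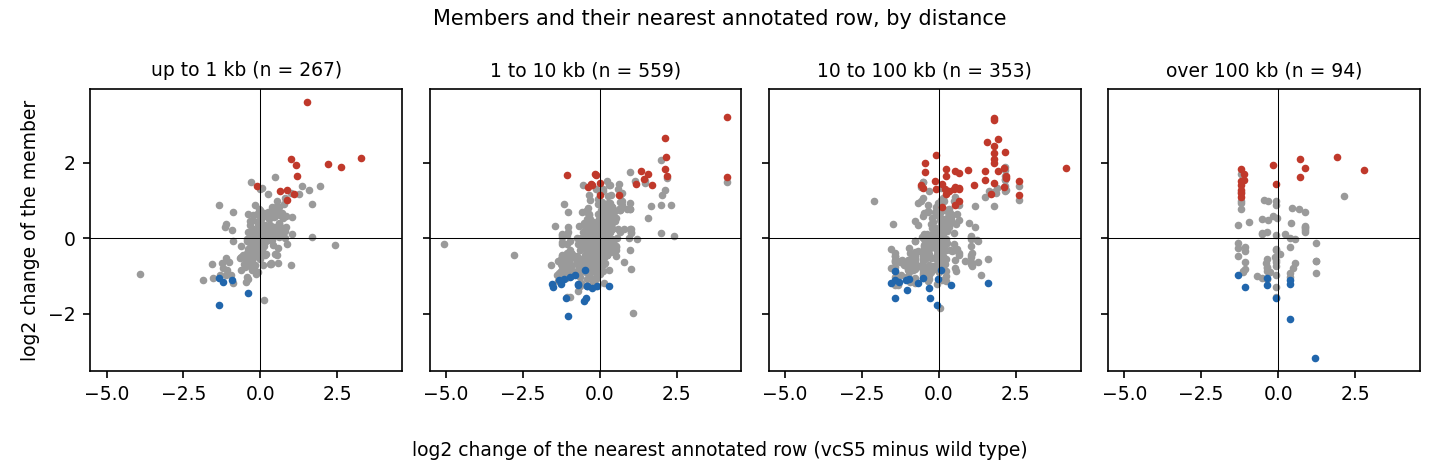
Log2 change of each unannotated locus (y axis) against that of its nearest annotated row (x axis), vcS5 minus wild type, in 4 classes of distance; red points were called higher, blue lower and grey not called. The cloud slopes upwards in the 3 nearer classes (Pearson's r of 0.615, 0.568 and 0.606) and has no slope beyond 100 kb (-0.01). Of the 94 loci beyond 100 kb, 11 have Trib1 as their nearest row.

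Against the GENCODE vM21 annotation of the same build, 672 of the 1273 loci (52.8%) touched no gene. Of these, 53 were called higher and 20 lower (10.9%). A further 239 lay over an exon of a long noncoding or unconfirmed gene, and 29 of them were higher and 5 lower (14.2%). Of the 141 over an exon of a protein-coding gene, 4 were higher and 7 lower (7.80%), and of the 149 inside a gene without touching an exon, 5 were higher and 12 lower (11.4%). Pseudogene exons accounted for 54 loci, with 1 higher and 2 lower. Over all rows, 4.59% were called higher, 4.13% lower and 8.72% in either direction. Higher calls outnumbered lower ones in the loci of noncoding genes and in those without a gene, and were outnumbered inside genes. No test of these differences was made. The floor on listed rows described above bears on these counts as well, so they are not taken as support for a direction.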

How the data were processed

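Per the labels' protocols, spleen cell RNA was sequenced from libraries of the TruSeq RNA v2 kit. FPKM of each library and the q-value of the authors' own comparison came from a table the authors deposited. The submitters' processing notes name TopHat2 2.0.9, Bowtie2 2.1.0, Cufflinks, Cuffdiff 2.1.1 and mm10, and the assembly settings and row filter are not given in the sources used here. Row ranks run to 23180, so the table is part of a longer one.

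All 14226 rows were fitted with limma 3.58.1 in R 4.3.3 on log2(FPKM + 1) with the variance trend and no covariates. Tests were two-sided, and p-values were adjusted by Benjamini-Hochberg. A filter at a mean FPKM of 1 removed 0 rows. Log2 changes understate changes of low loci, and ratios are of mean FPKM. Locus starts count from 0 in the table (5943 of 12571 matched rows start exactly 1 base before the reference gene), so 1 was added.

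Absolute depth is unknown from FPKM, so no counting interval is given. The commonest ratios of low wt replicate 1 values to wt replicate 2, vcS5 replicate 1 and vcS5 replicate 2 were 0.847, 0.901 and 0.831. Within 0.4 percent, 39 of 231, 17 of 136 and 13 of 147 low loci lay at them. Whether equal read numbers gave these ratios was not tested. Pearson's r over the 1273 loci was 0.879 and 0.873 within groups and 0.689 to 0.744 between them.

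Ranked loci are the 12 largest rises and falls among called loci whose higher group had 5 FPKM or more, with no overlap between groups and no 0. The 6 most abundant, those listed at 0 in a group that reach 5 FPKM in the other, the 4 called loci farthest from annotated rows, and all nearest rows were added. Groups of loci with a common nearest row, loci beside marker genes and those over receptor segments were chosen after their values were seen. The members and lists were chosen with earlier results of these data known. Scripts were tested on simulated data, with changes planted only in rows above about 5 FPKM. Recovery at lower loci and at loci listed at 0 was not tested. Alternatives changed the pseudocount, filter, scaling, variance model, replicate block, test, libraries, distance limits and neighbours.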

Additional observations from a re-analysis of the deposited data

How the results depend on the processing

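The count of 92 loci called higher was 95 with a pseudocount of 0.1, 77 with 5, 96 with quantile normalization, 103 without the variance trend and 69 by the authors' q-value. The 50 lower calls were 44, 39, 38, 68 and 57 in the same order. With a filter at a mean of 5 FPKM, which leaves 154 loci, 16 were higher and 12 lower. With the replicate block, 55 were higher and 15 lower, and 49 and 10 of these were among the 92 and 50. The labels do not say that equal numbers pair the samples, and the deviations of wt and vcS5 replicate 1 correlated at 0.176. Leaving out 1 library gave 2 to 15 higher and 0 to 4 lower calls, and 1 to 10 of the 24 ranked loci. Of the 24, 12 had an authors' q-value under 0.05, 16 were called at the 5 FPKM filter and 17 with the block. The near and far shares, 6.78% and 19.2%, were 9.05% and 26.1% with a limit of 50 kb. The near share was 9.89% by distance to reference genes, and the far share was 24.4% with 1 locus per neighbour. With a neighbour on either side, 50.7% of called loci had one called in the same direction. Among the abundant loci, none called, the change of XLOC_003489 ran from -0.99 to 0.19 over the fits without a library, and turned positive without wt replicate 2. That of XLOC_015406 turned to -0.20 with quantile normalization and ran from -0.15 to 0.37 over those fits, negative without wt replicate 2 (-0.15) and vcS5 replicate 1 (-0.11). The cause of these shifts was not tested, except that the filter and the left-out libraries leave less to test. The planned count models were not run because the table holds FPKM. Depth is unknown, so a locus under 1 FPKM cannot be given a counting error.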

Other observations

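H2-Ab1, H2-Ob, H2-DMa and H2-Oa, genes of the major histocompatibility complex class II pathway of antigen presentation, were the nearest annotated rows of 4 unannotated loci. These loci did not move together. XLOC_013358, over an exon of H2-Ab1 and 1615 bases from the H2-Ob row, measured 3.50 and 2.61 FPKM in wt and 0.988 and 0.843 FPKM in vcS5. XLOC_014597, 331 bases from H2-Ab1, measured 2.85 and 3.61 FPKM in wt and 0.848 and 1.23 FPKM in vcS5. Both fell (limma adjusted p = 0.0456 and 0.0494). XLOC_014594 at chr17:34128802-34129607, over an exon of CR974462.4 and 5575 bases from H2-DMa, went the other way, from 1.12 and 1.19 FPKM to 5.24 and 6.62 FPKM (limma adjusted p = 0.0129), while H2-DMa fell by 1.05 on the log2 scale. XLOC_014592 near H2-Oa was not called.

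On unplaced sequences of the assembly, 6 unannotated loci were measured, and 2 of them fell. XLOC_034927 measured 3.69 and 3.27 FPKM in wt and 1.32 and 0.634 FPKM in vcS5, and XLOC_034929 measured 6.06 and 5.65 FPKM in wt and 1.77 and 2.30 FPKM in vcS5 (limma adjusted p = 0.0482 and 0.0246). Both lie on the same sequence, and the median log2 change of the 6 was -0.92.

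The thymosin gene Tmsb10 was the nearest annotated row of 6 loci, 37159 to 45040 bases away, and 4 of them were called higher. XLOC_028499 there measured 0.299 and 0.353 FPKM in wt and 3.99 and 2.88 FPKM in vcS5 (limma adjusted p = 0.0169). Tmsb10 was at 497 and 731 FPKM in wt and 837 and 1088 FPKM in vcS5 and was not called (limma adjusted p = 0.215).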
